A study of Homo sapiens with 2 samples.

Results

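Cohesin and condensin are ring-shaped protein machines that fold chromosomes, and the mRNAs of 10 of their subunits were followed here in an RNA immunoprecipitation (RIP) of the topoisomerase TOP3B. The members were the rows of the deposited table whose symbol equalled SMC1A, SMC3, RAD21 or STAG2 for cohesin, SMC2 or SMC4 for the core of both condensins, NCAPD2, NCAPG or NCAPH for condensin I, and NCAPD3 for condensin II. All 10 were found among 13075 genes, and all 10 reached a floor of 5 FPKM in 1 or both libraries, as did 11990 genes in all. FPKM counts fragments per kilobase of transcript, relative to the fragments of the whole library. The study asked which RNAs carry complexes with TOP3B, an enzyme that relaxes DNA and can also act on RNA.

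The RIP library held RNA that a monoclonal antibody to FLAG pulled down from HEK293 cells that had received FLAG-tagged TOP3B with the R338W substitution by transfection. The input library came from cells of that line carrying the same transfected protein, with no antibody step. HEK293 is a human embryonic kidney line, and both samples are labelled as passage 15. The labels do not say whether both came from the same dish of cells. Each group had 1 library, so no difference below has a replicate check and no p-value is given. A mock precipitation from untagged cells was not analysed here, so binding to the beads or the antibody cannot be told apart from binding to TOP3B. FPKM is a share of a library and not an amount, and in RNA from bulk cells fewer cells with an RNA and less of it per cell cannot be told apart.

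An SMC ATPase is a long coiled coil with a hinge at one end and an ATP-binding head at the other, and SMC proteins work in pairs. A kleisin subunit closes the pair into a ring, and HEAT-repeat subunits sit on the kleisin and help the ring to hold DNA. Cohesin keeps sister chromatids together and extrudes chromatin loops in interphase. Condensin compacts chromosomes in mitosis, with condensin II in the nucleus throughout the cell cycle and condensin I reaching the chromosomes after the nuclear envelope breaks down.

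The contrast described first lay between the paired SMC mRNAs, and it was not singled out beforehand. How often a pair of genes in the whole table differs as much was not counted. The paired SMC mRNAs are shown at the codons of their ATP-binding Walker A motif. Each line gives 84 bases of coding sequence, 5′ to 3′, from GENCODE release 29 (GRCh38), and the 24 capital letters are the codons for glycine, any residue, any residue, glycine, any residue, glycine, lysine, and serine or threonine.
SMC1A: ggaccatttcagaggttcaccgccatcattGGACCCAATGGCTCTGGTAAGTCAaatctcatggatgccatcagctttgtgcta
SMC3: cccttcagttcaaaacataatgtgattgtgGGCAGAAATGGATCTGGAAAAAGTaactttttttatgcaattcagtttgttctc
SMC4: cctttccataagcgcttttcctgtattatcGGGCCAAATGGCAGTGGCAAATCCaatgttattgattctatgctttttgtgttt
SMC2: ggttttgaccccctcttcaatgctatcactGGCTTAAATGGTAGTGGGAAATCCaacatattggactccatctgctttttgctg
The motif began at coding base 94 in SMC1A, SMC3 and SMC2 and at coding base 337 in SMC4. Aligned at the motif without gaps, SMC1A and SMC3 had the same base at 38 of 84 positions, and SMC4 and SMC2 at 47 of 84. Pairs that are not partners had the same base at 40 to 49 positions, so partners were not more alike over these 84 bases. Over the 24 motif bases alone, SMC4 and SMC2 had the same base at 19, the most of any pair. SMC1A and SMC3 had the same base at 14, and pairs that are not partners at 14 to 17. Of all windows of 75 bases along the main transcripts, 0 of 9710 in SMC1A, 0 of 5397 in SMC4 and 0 of 5918 in SMC2 were present in a transcript of another gene. In SMC3, 244 of 4040 windows (6.04%) were shared with the processed pseudogene AC019097.1, and in NCAPG 11 of 4587 (0.24%) with the pseudogene NCAPGP2. The other 5 members shared none.

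The mRNA of 1 SMC partner in each complex stood near 2-fold higher in the RIP, while that of the other partner lay close to the input. SMC4 (ENSG00000113810.15, GRCh38 chromosome 3, 160399274 to 160434962, plus strand) measured 361 FPKM in RIP RNA and 157 FPKM in input RNA, a log2 ratio of 1.20. SMC2 (ENSG00000136824.18, chromosome 9, 104094260 to 104141417, plus strand), with which it forms the condensin hinge, stood at 32.6 FPKM in the RIP library and 32.8 FPKM in the input library, a log2 ratio of -0.01. The SMC4 level was thus 11.1 times the SMC2 level in RIP RNA and 4.78 times in input RNA, both per length.

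In cohesin, SMC1A (ENSG00000072501.17, chromosome X, 53374149 to 53422728, minus strand) had 368 FPKM in the RIP library, against 187 FPKM in input. Its log2 ratio of 0.97 was just under the 2-fold limit. SMC3 (ENSG00000108055.9, chromosome 10, 110567691 to 110604636, plus strand), its partner at the hinge, measured 61.3 FPKM in RIP RNA and 63.8 FPKM in input RNA, a log2 ratio of -0.06. The SMC1A level was 6.01 times the SMC3 level in RIP RNA and 2.94 times in input RNA. SMC1A and SMC4 were the members with the highest level in both libraries, as the plot of FPKM by gene shows.

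**Figure D1:**
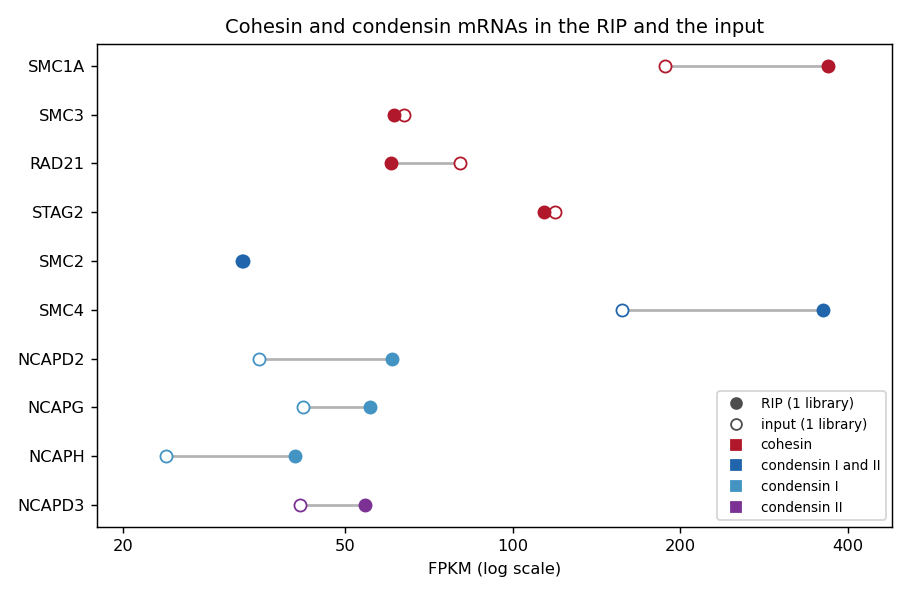
FPKM of the 10 cohesin and condensin mRNAs on a log axis, with filled points for the RIP, open points for the input (1 library each) and colours for the complex. SMC1A and SMC4 lie furthest to the right, between 361 and 368 FPKM in the RIP and between 157 and 187 FPKM in the input, RAD21 is the member whose RIP point lies clearly left of its input point, and the SMC2 points coincide.

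Ratios were log2((RIP + 1)/(input + 1)) in FPKM, which understates differences of low genes. From the depths estimated from the table, SMC4 rested on about 4470 RIP and 1200 input fragments, and SMC1A on about 6440 RIP and 2020 input fragments. The 95% counting interval of the log2 ratio without the pseudocount (exact binomial) was 1.11 to 1.29 for SMC4 and 0.90 to 1.05 for SMC1A. It was -0.14 to 0.02 for SMC3 and -0.09 to 0.07 for SMC2. Such intervals cover counting error only and rest on estimated depths and the median annotated transcript length, so they are approximate and say nothing of the spread between experiments.

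The other cohesin mRNAs had ratios below 0, although those of SMC3 and STAG2 were 0.02 and 0.01 when scaled to the fragments outside TOP3B. RAD21 (ENSG00000164754.12, chromosome 8, 116845935 to 116874866, minus strand), the kleisin that separase cuts at anaphase, stood at 60.6 FPKM in the RIP library and 80.5 FPKM in the input library. Its log2 ratio of -0.40 was the lowest of the 10 members. STAG2 (ENSG00000101972.18, chromosome X, 123960212 to 124422664, plus strand), the HEAT-repeat subunit that binds RAD21, had 114 FPKM in the RIP library, against 119 FPKM in input, a log2 ratio of -0.06. Its paralog STAG1, which takes the same place in another form of cohesin, measured 27.1 FPKM in RIP RNA and 20.3 FPKM in input RNA, a log2 ratio of 0.40. STAG2 was therefore 4.21 times the STAG1 level in RIP RNA and 5.87 times in input RNA. Over the 4 cohesin members the median log2 ratio was -0.06, with 1 ratio above 0 and 3 below. Over all genes 58.7% of ratios were above 0.

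The non-SMC subunits of condensin had ratios above 0, none of them reaching 2-fold. NCAPD2 (ENSG00000010292.12, chromosome 12, 6493356 to 6531955, plus strand), a HEAT-repeat subunit of condensin I, stood at 60.8 FPKM in the RIP library and 35.1 FPKM in the input library, a log2 ratio of 0.77. It rested on about 627 RIP and 224 input fragments. Its 95% counting interval without the pseudocount, 0.57 to 1.02, reached just past 2-fold. NCAPH (ENSG00000121152.9, chromosome 2, 96335787 to 96373845, plus strand), the kleisin of condensin I, had 40.8 FPKM in the RIP library, against 23.9 FPKM in input, a log2 ratio of 0.74. These levels kept nearly the same proportion in both libraries, with NCAPD2 at 1.49 times NCAPH in RIP RNA and 1.47 times in input RNA.

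NCAPG (ENSG00000109805.9, chromosome 4, 17810902 to 17844862, plus strand), the other HEAT-repeat subunit of condensin I, measured 55.5 FPKM in RIP RNA and 42.1 FPKM in input RNA. NCAPD3 (ENSG00000151503.12, chromosome 11, 134150119 to 134225454, minus strand), the condensin II counterpart of NCAPD2, stood at 54.3 FPKM in the RIP library and 41.55 FPKM in the input library. Their log2 ratios were 0.39 and 0.38, about midway between the highest and lowest members. Over the 6 condensin members the median log2 ratio was 0.57, with 5 ratios above 0 and that of SMC2 below, or at 0.07 when scaled to the fragments outside TOP3B. The difference between the cohesin and condensin medians has no test, and SMC1A and SMC2 each go against the median of their complex. Over all genes 58.7% of ratios were above 0, and nothing is read from the counts above and below 0.

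The condensin II subunits that are not members were measured too. NCAPH2, the kleisin of condensin II, had 52.2 FPKM in the RIP library, against 34.4 FPKM in input, a log2 ratio of 0.59. NCAPG2, its HEAT-repeat partner, measured 42.1 FPKM in RIP RNA and 37.3 FPKM in input RNA, a log2 ratio of 0.17. In both condensins the kleisin thus had a higher ratio than the G-type HEAT-repeat subunit, with NCAPH at 0.74 against NCAPG at 0.39. The same did not hold for the other HEAT-repeat subunit of condensin I, NCAPD2, which stood at 0.77. In condensin II, NCAPD3 at 0.38 lay below NCAPH2. NCAPH2 was named after its value was seen, and these differences were not tested.

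Read against all genes, the members were spread over most of the distribution. Of the 10 members, 1 was higher in the RIP by 2-fold or more and 0 were lower by that much, where 4.9% of 11990 genes were higher and 2.5% lower past the same limit. The members are protein-coding, and of the 10513 protein-coding genes past the floor 384 (3.65%) were higher and 56 lower. With 10 members, counts of 1 and 0 are too few to set against either background. At 1.5-fold, SMC4, SMC1A, NCAPD2 and NCAPH were higher and 0 members lower, where 19.9% of all genes were higher and 10.2% lower. The place of NCAPH past 1.5-fold rests on the scaling, since it fell to 0.57, just under that limit, with scaling to summed coding FPKM. The median log2 ratio was 0.38 over the members and 0.13 over all genes, whose quartiles were -0.25 and 0.50. It was 0.15 over protein-coding genes. All members but SMC2 and NCAPH were in the quintile of coding genes with the highest level, whose median ratio was 0.23. All but RAD21 and NCAPH were in quintiles 4 and 5 of main transcript length, with medians of 0.23 and 0.32. The median of the members was not compared with genes matched for level and length. SMC4 ranked 286 from the top of the 11990 genes and SMC1A 665, whereas RAD21 ranked 9957.

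**Figure D2:**
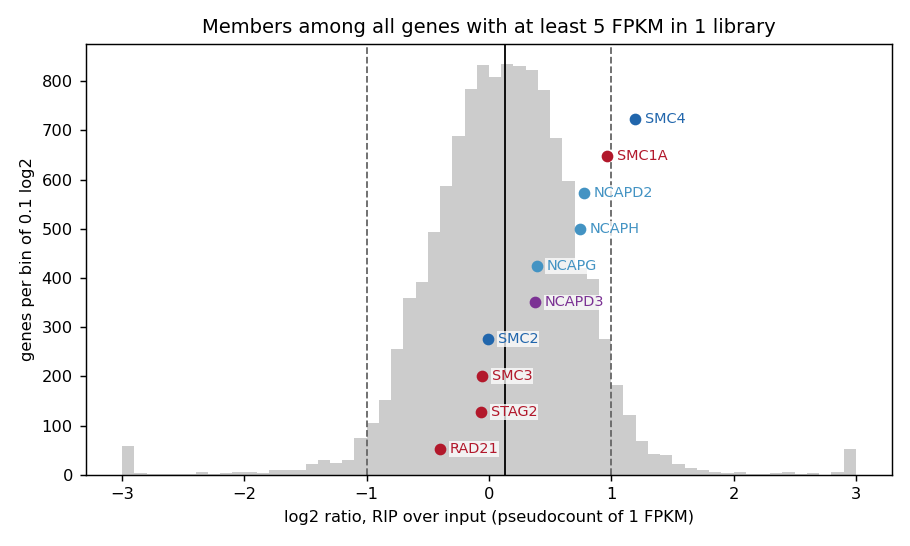
Number of genes per bin of 0.1 in the log2 ratio of RIP over input, for 11990 genes with at least 5 FPKM in 1 library, with 101 genes beyond ±3 drawn in the end bins. Coloured points mark the members by complex at heights chosen for legibility, the solid line is the median of all genes (0.13) and the dashed lines are 2-fold, which SMC4 alone passes and SMC1A at 0.97 just misses.

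The scaling of the libraries moved all ratios together. The transcript of the bait, TOP3B, stood at 30666 FPKM in the RIP library and 15062 FPKM in the input library, a log2 ratio of 1.03, and with its main transcript of 3107 bases took about 9.53% of RIP and 4.68% of input fragments. The table has 1 TOP3B value per library, in which transfected and chromosomal copies cannot be told apart. Scaling to the fragments outside TOP3B, a setting chosen after seeing the data, raised ratios by 0.08 log2. SMC1A then stood at 1.04, past 2-fold, and 3 members with ratios just below 0 came to lie just above it. The other scalings lowered ratios by 0.13 to 0.18 log2. SMC4 kept at least 2-fold under each scaling tried, at 1.02 to 1.27, and RAD21 stayed below 0, at -0.58 to -0.33. Over all genes 588 were at least 2-fold higher and 300 lower, against 365 and 450 once centred on the median gene, so the balance between directions over the whole table rests on the scaling.

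The members differed in base composition, a feature the choice of genes did not use and which was looked at after the ratios were known. GC content at the third codon position (GC3) was 64.8% in SMC1A, 58.2% in NCAPD2, 54.3% in NCAPD3 and 51.4% in NCAPH. The log2 ratios of these 4 members ran from 0.38 to 0.97. The other 6 members had a GC3 of 30.1% to 37.9%, and their ratios ran from -0.40 to 1.20 with a median of -0.03. SMC4, the member with the highest ratio, had the lowest GC3 of all 10, at 30.1%.

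Across the 10 members, Pearson's r between GC3 and log2 ratio was 0.44 and Spearman's rho 0.14. GC3 was 1 of 8 properties looked at. Spearman's rho with the log2 ratio was -0.50 for the median length of the annotated transcripts, 0.47 for coding length and 0.31 for the GC content of the main transcript. All points come from the same pair of libraries and genes are not replicates, so these coefficients only describe the 10 genes. Among protein-coding genes the median log2 ratio was 0.04 in the quintile with the lowest GC3, to which those 6 members belong, and 0.24 in the highest quintile. The range over these quintiles was small beside the spread within each, with quartiles of -0.29 and 0.41 in the lowest.

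**Figure D3:**
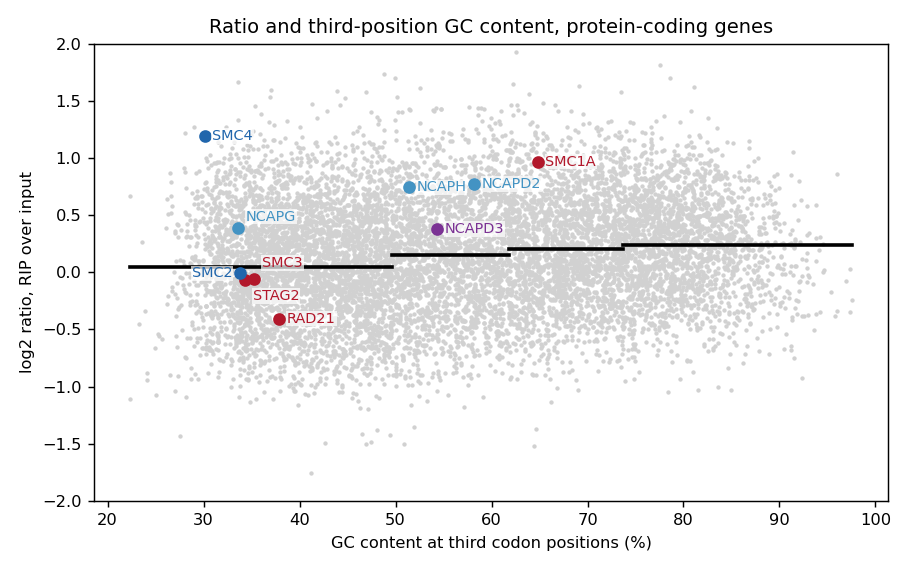
Log2 ratio of RIP over input against the GC content at the third codon position (%), with protein-coding genes in grey, members in the colour of their complex, and black bars at the median ratio of each GC quintile (4 coding genes lie beyond ±2 and are not drawn). The bars rise from 0.04 to 0.24, SMC1A, NCAPD2, NCAPH and NCAPD3 lie above them at mid GC, and SMC4 is the member at the lowest GC with a ratio of 1.20.

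Transcript structure also varied among the members. Coding length ran from 1893 bases in RAD21 to 4494 bases in NCAPD3, and the main transcript from 2763 bases in NCAPH to 9784 bases in SMC1A. SMC4 had 27 annotated transcripts, 9 of them with a retained intron, and a median annotated length of 667 bases. SMC1A had 6 transcripts with a median length of 874 bases. SMC3 had 2 transcripts and SMC2 had 5, with median lengths of 2445.5 and 4266 bases. FPKM of a gene depends on which of its transcripts receive the fragments, and whether transcript assignment contributes to the ratios was not tested.

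Among protein-coding genes the median log2 ratio was -0.11 for genes with 1 to 4 annotated transcripts and 0.38 for genes with 16 to 192, and the share at least 2-fold higher was 1.81% and 6.64%. SMC3 belongs to the lower of these classes and SMC4 to the upper. SMC1A at 0.97 and SMC2 at -0.01 share the class of 5 to 7 transcripts, whose median was 0.06. Over the 10 members Spearman's rho between transcript number and log2 ratio was 0.20, and it was -0.10 without SMC4. STAG2, with 18 transcripts, belongs to the upper class as well but had a ratio of -0.06. By length of the main transcript the median ran from -0.08 in the shortest quintile to 0.32 in the longest, which holds SMC1A, STAG2 and SMC2. Of these 3, SMC1A at 0.97 lay above that quintile's upper quartile of 0.63. SMC2 at -0.01 lay just above its lower quartile of -0.04, and STAG2 at -0.06 just under it.

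Other genes overlap 7 of the members on the opposite strand. The library kit keeps strand, but whether the counting used it is not given in the sources used here. Of the opposite-strand genes, 8 were in the table, and all but MRPL51 lay below the member they overlap in both libraries. IFT80 and TRIM59, which overlap SMC4, had 29.9 and 13.9 FPKM in RIP RNA, against 24.8 and 17.1 FPKM in input RNA, far below SMC4. MRPL51, which overlaps NCAPD2, had 78.3 FPKM in RIP RNA and 103 FPKM in input RNA, a log2 ratio of -0.39. NCAPD2 itself was lower, at 60.8 and 35.1 FPKM. Whether MRPL51 fragments entered the NCAPD2 values was not tested. NCAPD2 also carries a small Cajal body RNA on its own strand. SCARNA10 (ENSG00000239002.3) had 121 FPKM in the RIP library, against 286 FPKM in input, a log2 ratio of -1.23, where that of its host NCAPD2 was 0.77. Another entry under the symbol SCARNA10, also overlapping NCAPD2 on its strand, had 28.8 FPKM in RIP RNA and 94.9 FPKM in input RNA. Its log2 ratio was -1.69, and whether fragments were split between these entries was not tested.

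The wider pathway was described from 4 lists of 47 genes, of which 45 were in the table and 44 passed the floor. Together 2 of the 44 were at least 2-fold higher and 0 at least 2-fold lower, with 35 ratios above 0, 9 below and a median log2 ratio of 0.28. Over all genes 4.9% were 2-fold higher and 2.5% were 2-fold lower, and 58.7% of ratios were above 0. Of the 10513 protein-coding genes past the floor, 384 (3.65%) were 2-fold higher and 56 were 2-fold lower. The counts past 2-fold were near that background, and nothing is read from them.

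Both genes past 2-fold were among the 17 that load, release or protect cohesin. DDX11, a helicase needed for cohesion, measured 146 FPKM in RIP RNA and 69.4 FPKM in input RNA, a log2 ratio of 1.07. Near-identical copies of DDX11 exist in the human genome, so its fragments may be split among them. ESPL1 encodes separase, the protease that cleaves RAD21, and stood at 50.1 FPKM in the RIP library and 24.5 FPKM in the input library, a log2 ratio of 1.00. The mRNA of the protease and that of its substrate thus lay on opposite sides of the median gene. The place of DDX11 and ESPL1 past 2-fold rests on the scaling. With each of the 4 scalings that lower ratios, 0 of the 44 genes were 2-fold higher and 1, ANP32E, was 2-fold lower. Scaling to the fragments outside TOP3B left 3 genes 2-fold higher, DDX11, ESPL1 and REC8, and a pseudocount of 5 FPKM left 1, DDX11.

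Securin, the inhibitor of separase encoded by PTTG1, had 101 FPKM in the RIP library, against 92.9 FPKM in input. Shugoshin 2 (SGO2), which guards centromeric cohesin, had the lowest ratio of this list, at 9.84 FPKM in RIP RNA and 15.3 FPKM in input RNA, a log2 ratio of -0.59. Acetyltransferases that lock cohesin on DNA went opposite ways, with ESCO2 at 30.5 FPKM in the RIP library and 19.8 FPKM in the input library, and ESCO1 at 10.3 FPKM in the RIP library, against 15.2 FPKM in input. The loader subunit NIPBL measured 39.4 FPKM in RIP RNA and 42.9 FPKM in input RNA. Over the 17 genes the median log2 ratio was 0.22.

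Of the cohesin and condensin subunits outside the 10 members, 4 of 7 passed the floor, with log2 ratios of 0.17 to 0.94. REC8, known as the meiotic kleisin, had the highest of them, at 60.5 FPKM in the RIP library and 31.1 FPKM in the input library. The 11 SMC5/6 and related genes past the floor had a median log2 ratio of 0.16, beside 0.13 over all genes. RAD50, an SMC-like ATPase of double-strand break repair, was highest at 90.3 FPKM in the RIP library, against 48.9 FPKM in input. EID3, a kleisin-type SMC5/6 subunit, was lowest at 3.86 FPKM in RIP RNA and 5.39 FPKM in input RNA. SMCHD1, which acts in X inactivation, had the highest input level of the list, at 115 FPKM in the RIP library and 85.3 FPKM in the input library.

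The SMC5 and SMC6 mRNAs, partners in the third SMC complex, lay closer together than the partners in cohesin and condensin. SMC5 had 54.3 FPKM in the RIP library, against 34.5 FPKM in input. SMC6 measured 44.4 FPKM in RIP RNA and 34.3 FPKM in input RNA. Their log2 ratios were 0.64 and 0.36, while those of SMC1A and SMC3 differed by 1.03 and those of SMC4 and SMC2 by 1.20, differences that were not tested.

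The 12 genes of the list set for mitotic chromosome proteins had a median log2 ratio of 0.33, beside 0.13 over all genes. AKAP8, an anchoring protein linked to condensin recruitment, was highest at 27.6 FPKM in the RIP library and 14.8 FPKM in the input library. TOP2A, the topoisomerase that decatenates sister chromatids, had 154 FPKM in the RIP library, against 150.2 FPKM in input. ANP32E, a histone chaperone, was lowest at 23.0 FPKM in RIP RNA and 44.9 FPKM in input RNA, a log2 ratio of -0.94.

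**Figure D4:**
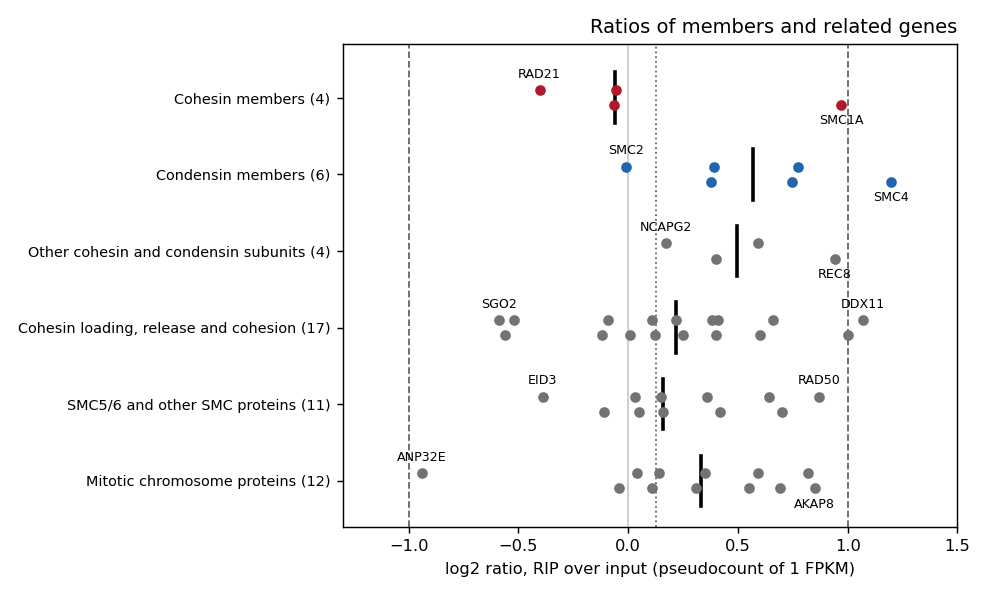
Log2 ratio of RIP over input for each member and each listed pathway gene past the floor, 1 point a gene, with black bars at list medians, a dotted line at the median of all genes (0.13) and dashed lines at 2-fold. The highest and lowest gene of each group are named. As the authors scaled the libraries, cohesin members other than SMC1A lie below 0, condensin members run from SMC2 at -0.01 to SMC4 at 1.20, and DDX11 and ESPL1 are the listed genes at or past 2-fold higher, which they are not with the scalings that lower ratios.

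Markers of the labelled line were present in both libraries. Of 8 markers set for HEK293, 6 were in the table, with a summed level of 994 FPKM in RIP RNA and 777 FPKM in input RNA, and PAX2 and LHX1 gave no value. Of 8 kidney tubule, 7 blood, 4 liver and 4 fibroblast markers, LRP2 alone of the tubule list and COL1A1 alone of the fibroblast list had a value. LRP2 stood at 5.49 FPKM in the RIP library and 1.96 FPKM in the input library, and COL1A1 at 7.45 FPKM in RIP RNA and 2.19 FPKM in input RNA. Genes without a value cannot be read as silent, since the filter behind the table is not given in the sources used here.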

How the data were processed

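RNA of 1 RIP and 1 input library was analysed, with groups taken from the sample titles. The authors deposited 1 table with 1 value per gene and library. Its unit is not named; FPKM was inferred for the deposited values, because of their decimals, their sums (1090243 for RIP, 1512049 for input) and the tool RSEM. The submitters' processing notes name RSEM 1.2.31 with cutadapt 1.18, Trimmomatic 0.3, STAR 2.6.1 and hg38. For their roles, settings and annotation release, the sources used here give nothing.

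The ratio used a pseudocount of 1 FPKM and a floor of 5 FPKM in at least 1 library, which removed 1085 genes. Without replicates no test was made. Depth and mean fragment length were searched together on genes with 1 annotated transcript and few fragments. The score was the mean of a cosine that is highest where a gene's fragment number is whole. The search gave 24800000 RIP fragments with a mean length of 169 bases, and 15200000 input fragments with 166 bases. Of the genes scored, 58.9% of 326 and 58.8% of 449 were within 0.15 of a whole fragment, a tolerance that covers 30% of the range. At the first maximum of the search, 46.9% of the whole numbers were even in the RIP and 85.8% in the input, so the input's first value, 30400000, was divided by 2. The input fragment numbers and the counting intervals rest on that step, and depths are estimates. Fragment numbers of members used the median annotated transcript length.

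Transcript features came from GENCODE release 29, matched by Ensembl identifier for 12983 of 13075 genes (99.3%), of which 10965 had the same version number. The main transcript was the principal one with the longest coding sequence. The depth search and the ratio were checked on simulated data. For the depth search these data were drawn from the model that the search assumes, so the check cannot show that the model holds for these libraries. Members and lists were chosen with earlier results of these data known. All members were to be named, and per list the highest and lowest ratio and the highest input level. STAG1, NCAPH2, ESPL1, ESCO1, ESCO2, NIPBL, SMC5, SMC6, IFT80, TRIM59, MRPL51 and SCARNA10 were named after their values were seen. The contrast between SMC partners was not singled out beforehand. With 1 ratio per gene, none was named for a likeness of pattern. Python 3.11.15, numpy 2.4.6, pandas 2.3.3, scipy 1.17.1 and matplotlib 3.10.9 were used.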

Additional observations from a re-analysis of the deposited data

How the results depend on the processing

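No paired analysis was possible because there is 1 library a group, and no replicate was left out for that reason. Count-based scalings were not run on FPKM. Over the settings run, the median log2 ratio of the 10 members ran from 0.21 to 0.46 (0.38 as reported), that of cohesin from -0.24 to 0.01 (-0.06 as reported) and that of condensin from 0.39 to 0.64 (0.57 as reported). With scaling to fragments outside TOP3B, SMC3, STAG2 and SMC2 changed sign, to 0.02, 0.01 and 0.07.

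The members at least 2-fold higher numbered 1, but 4 at 1.5-fold, 0 at 4-fold, and 2 with scaling to fragments outside TOP3B (chosen after seeing the data). Against 588 higher and 300 lower genes over the table, 300 and 180 were found with pseudocount 5, and 352 and 157 with a floor of 20 FPKM. Centring on the median gene gave 365 and 450, and scaling to summed coding FPKM gave 289 and 498. Coding genes alone gave 384 and 56. The 1.5-fold limit gave 2386 and 1222, and the 4-fold limit 79 and 84. Scalings chosen after seeing the data gave 337 and 453 (coding FPKM without TOP3B) and 325 and 460 (fragments outside TOP3B, mitochondrial and short noncoding RNAs). A further scaling of that kind, to fragments outside TOP3B alone, moved the balance the other way, with 791 higher and 254 lower. Beyond what each setting changes by construction, the cause was not tested.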

Other observations

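STAG3, the meiotic relative of STAG2, was under the floor of 5 FPKM, at 3.41 FPKM in RIP RNA and 4.78 FPKM in input RNA, but 5 genes annotated as its transcribed unprocessed pseudogenes were well above it. STAG3L5P stood at 62.8 FPKM in the RIP library and 54.4 FPKM in the input library, and STAG3L3 at 46.9 FPKM in the RIP library, against 32.5 FPKM in input. STAG3L1, STAG3L2 and STAG3L4 stood between 18.9 and 21.7 FPKM in the RIP and between 12.1 and 14.8 FPKM in the input. The log2 ratios of the 5 copies were 0.21 to 0.60. Such copies are close in sequence, so fragments may have been shared among them, and their values are not separate measurements.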
